A study of Mus musculus with 24 samples.

Results

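The 5 noncoding host genes Lncpint, Malat1, Rn7sk, Nlrp5-ps and Gm28437 gave 10 of the 1717 back-splice junctions measured in mouse cardiac fibroblasts after pressure overload or sham surgery. A back-splice junction is the join of a downstream position of a transcript to an upstream one, the mark by which circular RNA is counted in sequencing reads. The members were found as every junction whose host, the GENCODE M21 gene on the same strand that matches or holds the junction on the mm10 build, was one of these 5 genes. The hosts themselves had been chosen by the measured differences between TAC and sham libraries in this same table, so those differences are given below as a description, with no p-value for a member; counts of calls are printed only beside the share of the table that was called. The 10 junctions fall into 2 classes. In 4 of them, 3 of Lncpint and 1 of Nlrp5-ps, both ends lay at annotated exon boundaries. In the other 6, 3 of Malat1, 1 of Rn7sk and 2 of Gm28437, both ends lay inside a single exon and 45 to 66 bp apart.

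The libraries came from cardiac fibroblasts isolated by Langendorff perfusion from hearts of male C57BL/6J mice operated on at 8 weeks of age. TAC, a suture that narrows the aortic arch and loads the left ventricle with pressure, was compared with a sham operation that left out the ligation, at 1 week (4 sham and 4 TAC libraries), 4 weeks (5 sham and 4 TAC) and 8 weeks (4 sham and 3 TAC). All groups share strain, sex and age at surgery, and no sort on cell type is given in the sources used here. Whether each library stands for a different mouse is not stated in the labels, and any p-value below reflects only library-to-library spread, part of which may be technical. Depth was 3595 to 9146 junction reads per library, and 1 read was worth 0.642 to 1.57 of the normalized reads given below. The 10 junctions held 696 of the 138868 junction reads, or 0.501%, and 0.218% to 1.25% of a library. Of the 12 fibroblast marker genes examined, 1 (Dcn) hosted a junction in the table, so these circular RNA data hold little with which to check the labelled cell type. Cardiomyocyte markers (5 of 15 genes), macrophage and leukocyte markers (4 of 11) and endothelial markers (3 of 8) hosted junctions as well.

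Circular RNA forms when the spliceosome joins a 5' splice site to a 3' splice site upstream of it, and such a circle normally begins and ends at exon boundaries. Lncpint is a long noncoding RNA that p53 induces and that is known to bind Polycomb repressive complex 2. Malat1 is an unspliced, very abundant RNA of nuclear speckles. Rn7sk is the 7SK small nuclear RNA, made by RNA polymerase III, which holds the elongation factor P-TEFb in an inactive particle. Nlrp5-ps is a pseudogene related to Nlrp5, an oocyte gene of the NLR family. Gm28437 is a nuclear copy of mitochondrial DNA.

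The sequences at the joins of all 10 junctions are shown because they define what was counted. For the short junctions, the whole joined interval is printed in transcript direction with 10 bases on each side, and capitals mark the 2 bases just before and the 2 bases just after it. All of them lie on the minus strand of mm10, at chr19:5801899-5801943, chr19:5800854-5800910 and chr19:5801833-5801898 for Malat1, chr9:78175353-78175411 for Rn7sk, and chr1:24613561-24613622 and chr1:24613551-24613613 for Gm28437.
Malat1, 45 bp: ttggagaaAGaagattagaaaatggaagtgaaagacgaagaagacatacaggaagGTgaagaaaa
Malat1, 57 bp: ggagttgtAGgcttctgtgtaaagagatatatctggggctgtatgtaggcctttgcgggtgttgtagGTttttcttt
Malat1, 66 bp: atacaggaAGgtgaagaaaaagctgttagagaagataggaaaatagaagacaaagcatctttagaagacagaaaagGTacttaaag
Rn7sk, 59 bp: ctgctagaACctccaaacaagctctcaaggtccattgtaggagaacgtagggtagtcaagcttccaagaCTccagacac
Gm28437, 62 bp: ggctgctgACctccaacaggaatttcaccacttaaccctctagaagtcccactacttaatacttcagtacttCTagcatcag
Gm28437, 63 bp: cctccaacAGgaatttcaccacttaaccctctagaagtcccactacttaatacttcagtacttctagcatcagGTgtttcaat

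For the exon-boundary junctions, also on the minus strand, the last 20 bases of the exon at the 3' end of the circle are in lower case, and capitals mark the first 20 bases of the exon at its 5' end, into which they run. The intron bases beside these exons were not read here. They lie at chr6:31166476-31181149, chr6:31139729-31181149 and chr6:31139729-31197851 for Lncpint and at chr7:14578736-14609339 for Nlrp5-ps.
Lncpint, 14674 bp: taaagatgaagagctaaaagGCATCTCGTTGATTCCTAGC
Lncpint, 41421 bp: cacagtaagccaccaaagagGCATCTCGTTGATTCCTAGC
Lncpint, 58123 bp: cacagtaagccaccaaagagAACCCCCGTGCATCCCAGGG
Nlrp5-ps, 30604 bp: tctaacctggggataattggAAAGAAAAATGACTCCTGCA

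The 3 Lncpint junctions are built from a shared set of exon ends. The 14674-bp and 41421-bp junctions run into the same exon (31181022 to 31181149, 128 bases), which is why their capitals are alike, and the 41421-bp and 58123-bp junctions leave the same exon (31139729 to 31139786, 58 bases). That exon is the third of Lncpint-204 and the second of Lncpint-209 and Lncpint-213, and the exon that the 14674-bp junction leaves is the first of Lncpint-209, Lncpint-213 and Lncpint-214 (41 bases) and, with the same 3' end, the second of Lncpint-204 (160 bases). The exons into which the junctions run are exons 2 and 3 of Lncpint-201, Lncpint-203 and Lncpint-216. No annotated Lncpint transcript holds both ends of any of the 3 junctions. The Nlrp5-ps junction, in contrast, joins exon 11 to exon 2 of the annotated transcript Nlrp5-ps-201 and spans 10 exons with 1316 spliced bases. The best match of those 1316 bases among the transcripts of other genes was Nlrp5, with 97.1% identity over 1025 bases, so its counts are uncertain where reads fall in bases shared with that gene. None of the 10 joins, read over 40 bases, occurs in any of the 141767 annotated transcripts.

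All 6 short junctions had the flanking bases of a splice site on one strand or the other, as did the other 9 junctions of the table with neither end at an exon boundary. The 3 Malat1 junctions and the 63-bp junction of Gm28437 had AG just before and GT just after the interval. The Rn7sk junction and the 62-bp junction of Gm28437 had AC before and CT after it, which is the same pattern read on the opposite strand. The table's own junction type column carries this difference, with type 1 for 1714 junctions and type 2 for 3, of which these are 2. The only other type 2 junction lies in Gm11407 (56 bp), and its interval is identical over 56 bases to the mitochondrial gene mt-Nd5. No junction of the table had any other type. Of the 15 with neither end at an exon boundary, all 12 of type 1 had AG and GT, and all 3 of type 2 had AC and CT. The flanking bases thus follow from the junction type and are not particular to the members. Nothing is read from them about how the joins arose.

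The ends of the short junctions also carried short direct repeats. In these, bases next to or across the start of the interval occur again next to or across its end, so the exact join point is ambiguous. Part of a repeat can therefore lie outside the interval. The 57-bp Malat1 junction had the longest, 8 bases (GTTGTAGG). The repeat was 5 bases in the 66-bp Malat1 junction (AAGGT) and in Rn7sk (CTCCA), 4 in the 63-bp junction of Gm28437 (CAGG), 3 in the 45-bp Malat1 junction (AAG) and 2 in the 62-bp junction of Gm28437. The median over these 6 was 4.5 bases, and over the other 9 junctions of the table with neither end at an exon boundary it was 2 bases (0 to 6). Both ranges overlap, and no test was made of this difference.

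**Figure D1:**
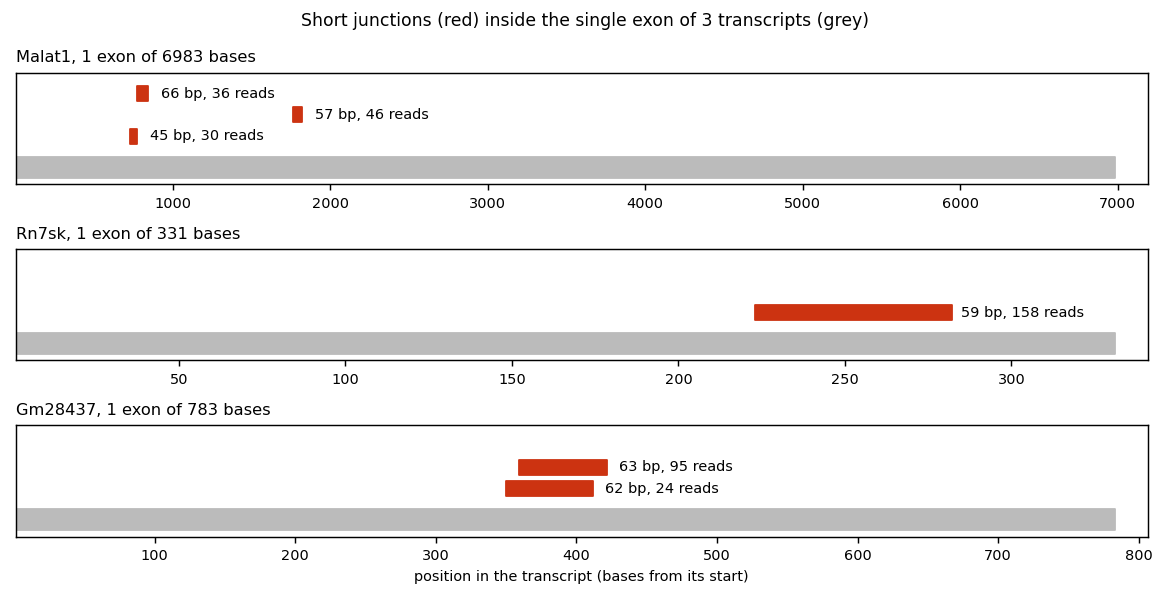
Position of the 6 short junctions (red bars) inside the single exon of Malat1, Rn7sk and Gm28437 (grey bars); the horizontal axis is the position in bases from the start of each transcript, drawn to its own scale, and the labels give the span and the reads over all 24 libraries. The Malat1 junctions of 45 and 66 bp touch each other, and those of Gm28437 overlap.

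The 45-bp and 66-bp junctions of Malat1 covered bases 730 to 774 and 775 to 840 of its 6983 bases, with a gap of 0 bases between them, and the 57-bp junction covered bases 1763 to 1819. The Rn7sk junction took bases 223 to 281 of 331. The Gm28437 junctions took bases 350 to 411 and 359 to 421 of 783 and overlapped by 53 bases. Searched against all annotated transcripts, the Malat1 intervals matched no other gene, the Rn7sk interval aligned over at least 90% of its length to 3 other genes (the best, Gm23037, at 92.9% identity over 56 bases), and both Gm28437 intervals were identical to mt-Co3. Gm28437 matches the mitochondrial mRNA mt-Co3, a subunit of cytochrome c oxidase, at all 783 of its bases, and the table held 0 junctions on the mitochondrial chromosome. Reads placed in Gm28437 therefore cannot be told apart from reads of mt-Co3.

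Short junctions were rare in the table. Only 12 of the 1717 junctions spanned under 100 bp, and 6 of these were the Malat1, Rn7sk and Gm28437 junctions. The others lay in Sparc (41 bp), Actb (45 bp), Ptms (45 bp), Gm11407 (56 bp), Ncapd2 (57 bp) and Ahnak (72 bp). The median span was 6241 bp, and 1666 junctions had both ends at exon boundaries, 36 had 1 and 15 had none. Besides the 10 members, 9 junctions had a host that is not annotated as protein coding; the most abundant of these came from exon 2 of Pvt1, at a mean of 13.1 normalized reads.

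**Figure D2:**
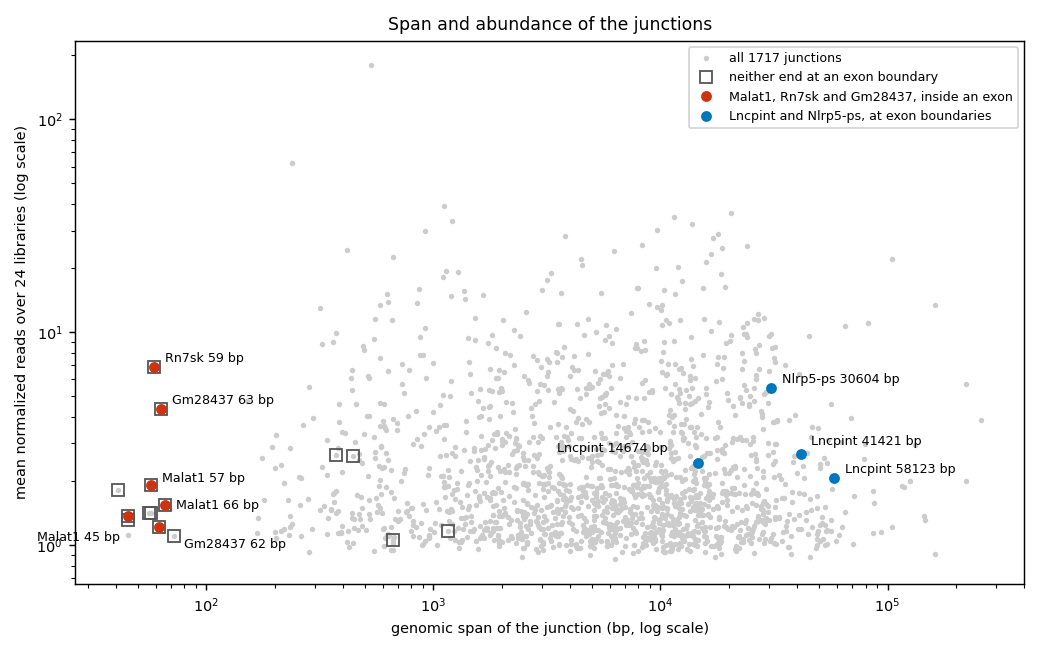
Genomic span (horizontal axis, bp, log scale) against the mean normalized reads over 24 libraries (vertical axis, log scale) for the 1717 junctions (grey), with Malat1, Rn7sk and Gm28437 in red, Lncpint and Nlrp5-ps in blue, and squares around the 15 junctions with neither end at an exon boundary. The red points sit at 45 to 66 bp, far to the left of the median span of 6241 bp, and Rn7sk and the 63-bp junction of Gm28437 are the highest of them.

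Junction reads are not scaled by transcript length, but the members differ in how many other genes share their bases, so their order below is one of reads as placed in the table. Averaged over all 24 libraries, Rn7sk had the highest level, with a mean of 6.86 normalized reads (158 reads, rank 164 of 1717), and had a read in all 24 libraries. Nlrp5-ps followed with 5.47 (134 reads, 22 libraries) and the 63-bp junction of Gm28437 with 4.35 (95 reads, 20 libraries). The Lncpint junctions had means of 2.67 (41421 bp), 2.42 (14674 bp) and 2.07 (58123 bp), and the Malat1 junctions 1.91 (57 bp), 1.53 (66 bp) and 1.38 (45 bp). The order differed by group: Rn7sk had the highest mean in 4-week sham (10.3) and 8-week TAC (7.52), the 63-bp junction of Gm28437 in 1-week sham (10.7) and 8-week sham (7.38), and Nlrp5-ps in 1-week TAC (9.42) and 4-week TAC (6.77). The 62-bp junction of Gm28437 had the lowest mean over all libraries, 1.22, with reads in 10 libraries. The median junction of the table had 44 reads in all, so 3 members, the 66-bp and 45-bp junctions of Malat1 and the 62-bp junction of Gm28437, lay below it with 36, 30 and 24.

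At 1 week, the 3 Lncpint junctions, both Gm28437 junctions and Nlrp5-ps stood farthest apart between TAC and sham. Lncpint and Gm28437 were lower in TAC and Nlrp5-ps was higher. Of the 10 members, 3 were among the 25 junctions called over the whole table at an adjusted p of 0.05 (1.46% of 1717), namely both Gm28437 junctions and Nlrp5-ps. Such differences had helped to choose the members, so nothing is read from that count. Without sham replicate 2 or TAC replicate 3 the 1-week count was 0, and without sham replicate 3 or TAC replicate 1, 2 or 4 it was 1. With only the groups compared in the fit, it was also 0. At 4 weeks 0 of 10 were called (0.116% of the table), at 8 weeks 0 of 10 (0% of the table) and in the mean of the 3 times 1 of 10, the 63-bp junction of Gm28437 (0.641% of the table). The 4-week count was 2 with only the groups compared and 1 without sham replicate 3 of that time. The count for the mean was 0 with a pseudocount of 0.1 and was 2 without 1-week sham replicate 1, 4-week sham replicate 2, 8-week sham replicate 3 or 8-week TAC replicate 2. Differences below are TAC minus sham of log2(normalized reads + 0.5) with their standard error (SE).

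**Figure D3:**
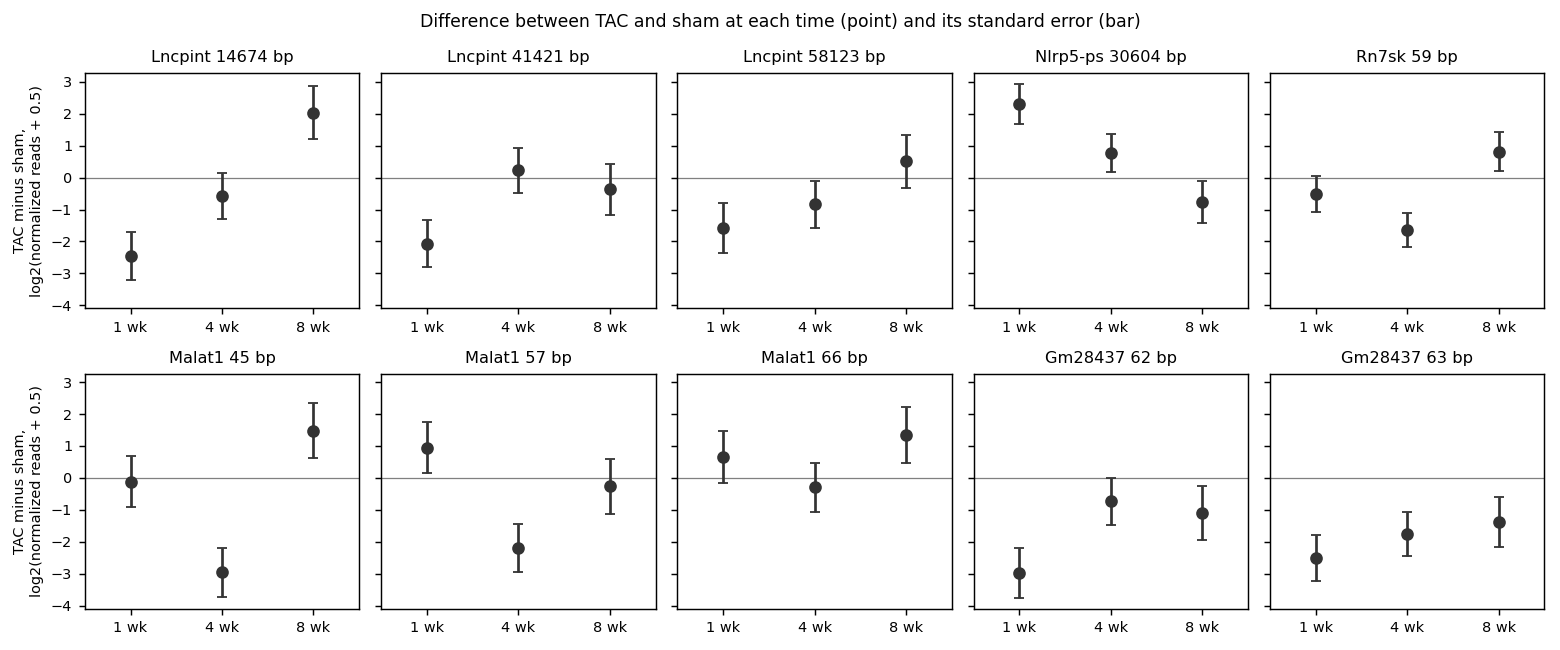
TAC minus sham of log2(normalized reads + 0.5) at 1, 4 and 8 weeks (points) with its standard error (bars) for each of the 10 junctions. The Gm28437 differences are negative at each time, from -2.98 to -0.74, while those of the 14674-bp Lncpint junction run from -2.45 at 1 week to 2.04 at 8 weeks.

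The 14674-bp junction of Lncpint had 3.77, 2.49, 3.01 and 3.10 normalized reads in the 1-week sham libraries and 0, 0.958, 0 and 0 in TAC. At 4 weeks it had 3.74, 1.57, 1.74, 5.09 and 2.76 in sham and 1.69, 3.67, 0 and 4.50 in TAC, and at 8 weeks 1.06, 2.2, 0 and 1.06 in sham and 7.18, 5.11 and 3.43 in TAC. Each sham library lay above every TAC library at 1 week, the groups overlapped at 4 weeks, and each TAC library lay above every sham library at 8 weeks. The difference was -2.45 ± 0.76 at 1 week (-4.13 with a pseudocount of 0.1 in place of 0.5, -1.78 with 1), -0.57 ± 0.72 at 4 weeks and 2.04 ± 0.82 at 8 weeks. It rested on 10 sham reads and 1 TAC read at 1 week and on 4 and 15 at 8 weeks.

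The 41421-bp junction of Lncpint, which runs into the same exon, had 3.77, 3.74, 3.01 and 3.10 normalized reads in the 1-week sham libraries and 1.54, 0.958, 0 and 0 in TAC. These groups did not overlap (difference -2.07 ± 0.73, or -3.26 with a pseudocount of 0.1). At 4 weeks the values were 4.67, 4.71, 2.6, 1.02 and 5.53 in sham and 4.23, 2.93, 2.90 and 6.42 in TAC, and at 8 weeks 1.06, 0, 6.74 and 2.12 in sham and 1.20, 1.02 and 0.857 in TAC. The groups overlapped at both later times (0.23 ± 0.70 and -0.37 ± 0.79), and at 8 weeks 1 sham library, replicate 3 with 7 reads, was above all others.

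The 58123-bp junction of Lncpint had 6.28, 3.74, 1.5 and 2.07 normalized reads in the 1-week sham libraries and 4.61, 0, 0 and 0.973 in TAC, and these overlapped (-1.57 ± 0.77, or -2.68 with a pseudocount of 0.1). The 4-week libraries had 1.87, 1.57, 0.868, 2.04 and 7.37 in sham and 0.845, 0.734, 0.726 and 1.93 in TAC, and at 8 weeks 1.06, 3.30, 0 and 2.12 in sham and 1.20, 3.06 and 1.71 in TAC. The groups overlapped at both later times, with differences of -0.84 ± 0.73 and 0.51 ± 0.84. Summed over its 3 junctions, Lncpint at 1 week had a sham level of 9.89 ± 2.81 normalized reads and a TAC level of 2.26 ± 2.71 (SD, n = 4 each), with no overlap, from 32 and 7 reads. The later sums overlapped, with 9.43 ± 3.92 (n = 5) and 7.64 ± 3.83 (n = 4) for sham and TAC at 4 weeks and 5.18 ± 1.47 (n = 4) and 8.26 ± 1.96 (n = 3) at 8 weeks. Ordered by level, the 1-week sham sum was the highest and the 1-week TAC sum the lowest of the 6 groups, and neighbours in that order overlapped at every step.

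Nlrp5-ps, the multi-exon pseudogene circle, had 0, 0, 10.5 and 4.14 normalized reads in the 1-week sham libraries and 9.23, 4.79, 13.0 and 10.7 in TAC. The groups overlapped, because sham replicate 3 reached the TAC range, and the difference of 2.31 ± 0.62 was 1.67 without sham replicate 1 or 2, each of which had 0 reads, and 3.16 without sham replicate 3. At 4 weeks it had 3.74, 1.57, 6.94, 4.07 and 3.69 in sham and 7.61, 4.40, 7.99 and 7.07 in TAC (0.77 ± 0.59), and at 8 weeks 10.6, 4.40, 3.85 and 3.18 in sham and 4.79, 4.09 and 0.857 in TAC (-0.76 ± 0.67). All 4 TAC libraries were above the sham mean at 1 week and at 4 weeks, and all 3 were below it at 8 weeks. The 8-week side rested on sham replicate 1: without it the sham mean was 3.81, 2 of the 3 TAC libraries were above that mean, and the difference was -0.42. It was -0.14 without TAC replicate 3. In order of level, the group means ran from 9.42 (TAC, 1 week) and 6.77 (TAC, 4 weeks) through 5.52, 4.00 and 3.66 (sham at 8, 4 and 1 weeks) to 3.24 (TAC, 8 weeks), and libraries of neighbouring groups overlapped at every step.

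**Figure D4:**
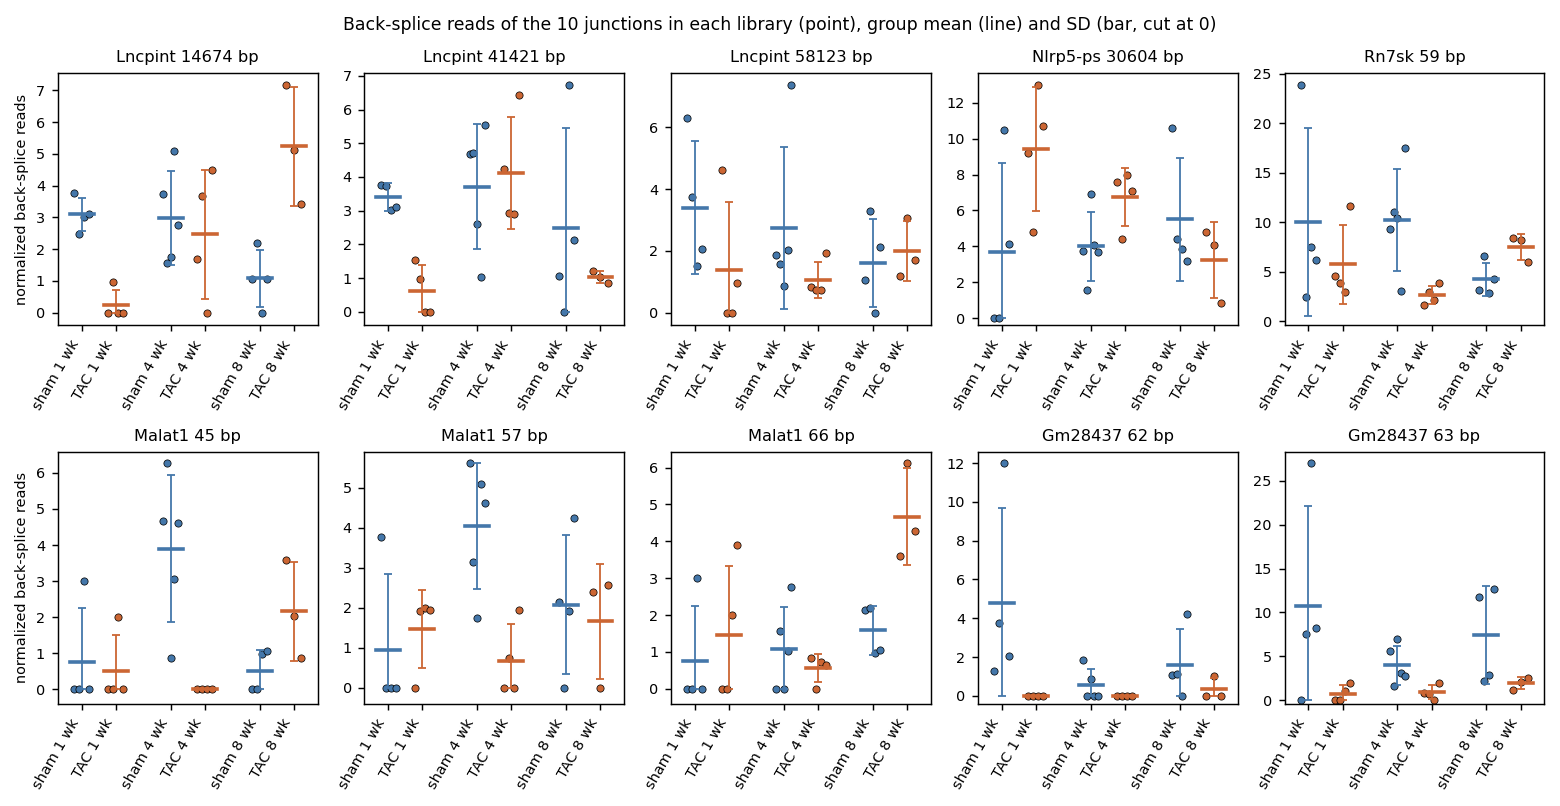
Normalized back-splice reads (vertical axis, own scale per panel) of the 10 junctions in each of the 24 libraries (points) by surgery and time, with the group mean (line) and SD (bar, cut at 0); sham is blue and TAC orange. Groups without overlap are those of the 14674-bp Lncpint junction at 1 and 8 weeks, the 41421-bp Lncpint and 62-bp Gm28437 junctions at 1 week, the 45-bp Malat1 junction at 4 weeks and the 66-bp Malat1 junction at 8 weeks.

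Among the short junctions, Rn7sk had 23.9, 2.49, 7.51 and 6.2 normalized reads in the 1-week sham libraries and 4.61, 3.83, 2.99 and 11.7 in TAC. The difference was -0.51 ± 0.56, and it was 0.03 without sham replicate 1, the library with 19 reads. The 4-week libraries had 9.34, 11.0, 10.4, 3.05 and 17.5 in sham and 1.69, 2.93, 2.18 and 3.85 in TAC, so that sham replicate 4 alone reached the TAC range (-1.64 ± 0.53). Summed macrophage and leukocyte markers (12 junctions of Adgre1, Ikzf1, Mertk and Mrc1) were also lower on average in 4-week TAC, at 35.6 to 91.7 against 59.9 to 141.4 in sham, with overlap. Of the 12, 8 were lower in TAC at 4 weeks and 4 were higher, and 0 were called (0.116% of the table was). The junctions with the most reads, 777 and 354, were both of Adgre1, so the sum leans on that gene. The sum was highest of the 24 libraries in 1-week sham replicate 1 (149.5), as was Rn7sk. Some other libraries did not follow this order. In 1-week TAC, replicate 1 had a marker sum of 123 with 4.61 of Rn7sk, and replicate 4 had 54.5 with 11.7. The mean marker sum was higher in TAC at 1 week (94.4 against 81.8), where the Rn7sk mean was lower. At 8 weeks it was lower in TAC (81.7 against 87.5), where the Rn7sk mean was higher. The part of these markers in the 4-week values of Rn7sk and Malat1 was not tested. At 8 weeks the Rn7sk values were 3.19, 6.60, 2.89 and 4.24 in sham and 8.38, 8.17 and 6.00 in TAC (0.81 ± 0.61), and every TAC library was above the sham mean. The group means in order were 10.3 and 10.02 (sham at 4 and 1 weeks), 7.52 (TAC, 8 weeks), 5.78 (TAC, 1 week), 4.23 (sham, 8 weeks) and 2.66 (TAC, 4 weeks), with overlap between all neighbours.

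Malat1 junctions were scarce at 1 week in both groups. The 45-bp and 57-bp junctions had their highest group means in 4-week sham (3.90 and 4.04), and the 66-bp junction in 8-week TAC (4.67). The 45-bp junction had 0, 0, 3.01 and 0 normalized reads in the 1-week sham libraries and 0, 0, 2.00 and 0 in TAC (-0.12 ± 0.80). At 4 weeks it had 4.67, 6.28, 0.868, 3.05 and 4.61 in sham and 0 in all 4 TAC libraries, with 18 reads against 0 and no overlap. Against a floor of 3 reads for the whole TAC group it was at least 7.05-fold lower, a bound that covers counting error of the group at 0 only and no spread between libraries. The 4-week TAC libraries were the deepest of the series, with 6846 to 9146 junction reads. At 8 weeks it had 0, 0, 0.962 and 1.06 in sham and 3.59, 2.04 and 0.857 in TAC, from 2 and 6 reads, and the groups overlapped (1.48 ± 0.87). The annotated extent of another gene, Gm37376, on the opposite strand overlaps this junction, but no annotated transcript of that gene holds the whole interval.

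The 66-bp junction of Malat1 begins at the next base. It had 0, 0, 3.01 and 0 normalized reads in the 1-week sham libraries and 0, 0, 2.00 and 3.89 in TAC (0.66 ± 0.81), and 0, 1.57, 0, 1.02 and 2.76 in sham and 0.845, 0, 0.726 and 0.642 in TAC at 4 weeks (-0.29 ± 0.77). At 8 weeks it had 2.13, 2.2, 0.962 and 1.06 in sham and 3.59, 6.13 and 4.29 in TAC. These 8-week groups did not overlap (1.34 ± 0.88), from 6 reads in sham and 14 in TAC.

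The 57-bp junction of Malat1, about 1 kilobase further along, had 3.77, 0, 0 and 0 normalized reads in the 1-week sham libraries and 0, 1.92, 2.00 and 1.95 in TAC (0.95 ± 0.80). The 4-week libraries had 5.61, 3.14, 1.74, 5.09 and 4.61 in sham and 0, 0.734, 0 and 1.93 in TAC, from 20 and 4 reads (-2.2 ± 0.76, or -3.41 with a pseudocount of 0.1). Sham replicate 3 at 4 weeks was the single sham library in the TAC range. At 8 weeks the values were 2.13, 0, 1.92 and 4.24 in sham and 2.39, 0 and 2.57 in TAC (-0.26 ± 0.87). Summed over its 3 junctions, Malat1 at 4 weeks had a sham level of 9.0 ± 3.72 normalized reads (SD, n = 5) and a TAC level of 1.22 ± 0.902 (n = 4). The groups did not overlap, though the lowest sham library (2.603) was close to the highest TAC library (2.569). At 8 weeks the levels were 4.17 ± 1.71 for sham (n = 4) and 8.49 ± 0.970 for TAC (n = 3), and every TAC library was above every sham library. At 1 week the sums were 2.44 ± 2.97 and 3.44 ± 2.97 (n = 4 each). In the order of the 6 groups, from 4-week sham and 8-week TAC down to 4-week TAC, the only neighbours without overlap were 8-week TAC and 8-week sham.

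The Gm28437 junctions, identical in sequence to mt-Co3, had lower means in TAC than in sham at each time. The 63-bp junction had 0, 7.48, 27.0 and 8.27 normalized reads in the 1-week sham libraries and 0, 0, 0.998 and 1.95 in TAC. The groups overlapped because sham replicate 1 had no read, and the difference of -2.51 ± 0.72 was -1.74 without sham replicate 3 and -3.67 without sham replicate 1. At 4 weeks it had 5.61, 1.57, 6.94, 3.05 and 2.76 in sham and 0.845, 0.734, 0 and 1.93 in TAC (-1.77 ± 0.69), and at 8 weeks 11.7, 2.2, 2.89 and 12.7 in sham and 1.20, 2.04 and 2.57 in TAC (-1.39 ± 0.78). The groups overlapped at both later times. Over the 3 times, 11 of 11 TAC libraries lay below the sham mean of their own time, and the mean difference was -1.89 ± 0.42.

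The 62-bp junction of Gm28437 had 1.26, 3.74, 12 and 2.07 normalized reads in the 1-week sham libraries and 0 in all 4 TAC libraries. From 14 reads against 0 it was at least 5.70-fold lower against the floor of 3 reads for the group, and at least 2.81-fold lower without sham replicate 3, which held 8 of the 14 reads. The 4-week libraries had 1.87, 0, 0.868, 0 and 0 in sham and 0 in all 4 TAC libraries, which gives no fold because sham held 3 reads in all, and at 8 weeks 1.06, 1.10, 0 and 4.24 in sham and 0, 1.02 and 0 in TAC (-1.11 ± 0.85).

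Summed cardiomyocyte markers were, like the Gm28437 means, lower in TAC at each time, and every TAC library lay below every sham library of its time. At 4 weeks the margin was narrow, with 38.70 in the lowest sham and 38.54 in the highest TAC library. The 9 junctions of Ttn, Ryr2, Cacna1c, Slc8a1 and Atp2a2 summed to 33.1 to 118.7 normalized reads in sham and 22.4 to 29.2 in TAC at 1 week, to 38.7 to 107.6 and 16.0 to 38.5 at 4 weeks, and to 50.04 to 116.0 and 43.7 to 46.7 at 8 weeks. Of these 9 junctions, 6 were lower in TAC and 3 were higher at each time. At 1 week 2 of the 9 were called lower (1.46% of the table was called). At 4 weeks 2 were called lower (0.116% of the table), and at 8 weeks 0 (0%). In the mean of the 3 times 2 were called lower (0.641% of the table). The junctions with the most reads, 582 and 182, were both of Ttn, so the sum leans on that gene. The highest sum in the 1-week sham group, 118.7, was in replicate 3, the library with the highest value of both Gm28437 junctions. The other libraries of that group did not follow this order: replicate 4 had the lowest sum (33.1) with 8.27 of the 63-bp junction, replicate 2 had 59.85 with 7.48, and replicate 1 had 46.5 with 0. In 8-week sham, replicates 1 and 4 had the highest sums (116 and 97.58) with 11.7 and 12.7. Replicates 2 and 3 had 73.7 and 50.04 with 2.2 and 2.89. In 4-week sham, replicate 3 was highest in both (107.6 with 6.94), but replicate 5 had the lowest sum (38.7) with 2.76. The libraries had the same order in both in 4-week TAC and opposite orders in 8-week TAC. In 1-week TAC, replicate 1 had the highest sum (29.22) with 0. The other 10 genes of that list, Myh6, Myh7 and Tnnt2 among them, hosted no junction in the table. The part of cardiomyocyte RNA in the Gm28437 differences was not tested, and in these bulk samples fewer cells of a type and less RNA per cell cannot be told apart.

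Counted by direction, 3 of 10 members had TAC libraries entirely below sham at 1 week (3.03% of the table) and 0 entirely above (2.21%). At 4 weeks the counts were 1 below (1.22%) and 0 above (2.33%), and at 8 weeks 0 below (3.03%) and 2 above (3.09%). The median difference over the members was -1.04 at 1 week, -0.79 at 4 weeks and 0.12 at 8 weeks, against 0.04, 0.12 and 0.03 over all 1717 junctions. These differences helped to choose the members, and nothing is read from the contrast with the table.

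Summed by class, as a description of the same values, the 4 exon-boundary junctions together had 13.6 ± 3.38 normalized reads in sham and 11.7 ± 3.65 in TAC at 1 week (SD, n = 4 each), 13.4 ± 3.69 (n = 5) and 14.4 ± 3.88 (n = 4) at 4 weeks, and 10.7 ± 2.26 (n = 4) and 11.5 ± 4.06 (n = 3) at 8 weeks. In this sum the lower Lncpint and the higher Nlrp5-ps of 1-week TAC libraries lie together. The 6 short junctions together had 27.9 ± 17.7 (sham) and 9.95 ± 6.75 (TAC) after 1 week. Their sums were 23.8 ± 6.40 (sham) and 4.76 ± 2.47 (TAC) after 4 weeks, then 17.4 ± 8.17 (sham) and 18.3 ± 1.73 (TAC) after 8 weeks. Only at 4 weeks did the libraries of this sum not overlap, with 15.3 to 32.2 in sham and 2.90 to 8.35 in TAC.

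**Figure D5:**
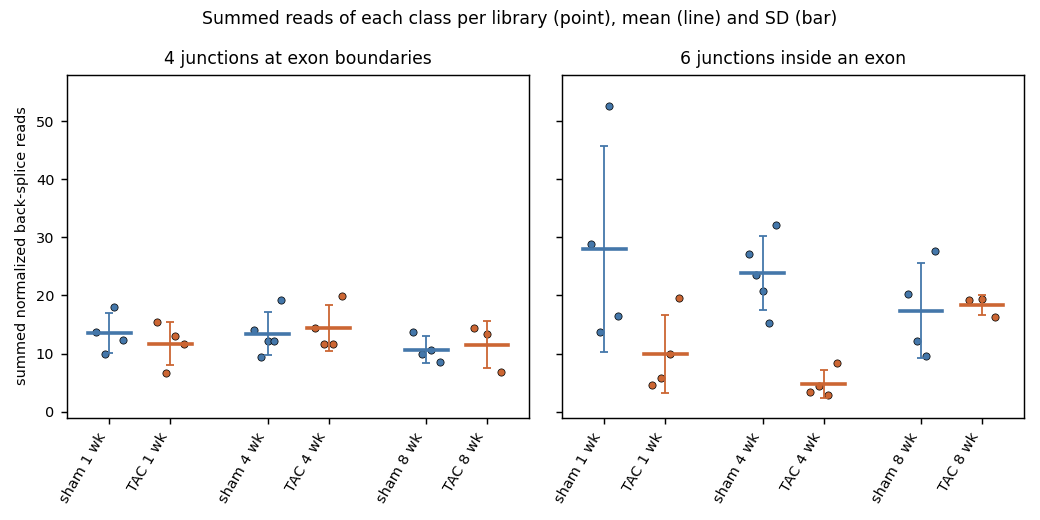
Summed normalized back-splice reads (vertical axis) of the 4 junctions at exon boundaries (left) and the 6 short junctions inside an exon (right) in each library (points), with the group mean (line) and SD (bar); sham is blue and TAC orange. The short junctions lie at 2.90 to 8.35 in the 4-week TAC libraries, below all 4-week sham libraries, while the exon-boundary sums of sham and TAC overlap at each time.

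Comparisons between times within one kind of surgery were not used to choose the members, although they share libraries with the comparisons that were. In sham, 0 of 10 members passed between 1 and 4 weeks (0% of the table) and 0 between 1 and 8 weeks (0.116% of the table, 2 junctions, neither a member). In TAC, 0 of 10 passed between 1 and 4 weeks (0% of the table) and 0 between 1 and 8 weeks (0%). At an unadjusted p under 0.05, limma counted 130 junctions of the table for sham at 4 against 1 week, 129 for sham at 8 against 1 week, 88 for TAC at 4 against 1 week and 129 for TAC at 8 against 1 week, with 3, 1, 2 and 3 members among them.

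The largest of these differences was that of the 14674-bp Lncpint junction. Its TAC level went from 0.240 ± 0.479 normalized reads at 1 week (SD, n = 4) to 5.24 ± 1.88 at 8 weeks (n = 3), a log2 difference of 3.08 ± 0.82 with a limma adjusted p of 0.273, and each of the 3 later libraries was above the 4 earlier ones. The 41421-bp junction had 0.624 ± 0.758 in TAC at 1 week and 4.12 ± 1.65 at 4 weeks (n = 4 each; 2.25 ± 0.73, limma adjusted p = 0.546). In sham, the 57-bp and 45-bp Malat1 junctions had log2 differences of 2.32 ± 0.76 (limma adjusted p = 0.252) and 2.25 ± 0.76 (0.255) between 1 and 4 weeks, and the 62-bp junction of Gm28437 had -2.24 ± 0.75 (0.255). Nlrp5-ps had 1.52 ± 0.62 in sham between 1 and 8 weeks (limma adjusted p = 0.535) and -1.55 ± 0.67 in TAC (0.571), and the 66-bp Malat1 junction 1.98 ± 0.88 in TAC (0.592). None of these passed, which does not show that levels were equal across time.

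Genes that work with these RNAs were looked up from lists chosen with earlier results known. Of 11 genes of Polycomb repressive complex 2, the partner of Lncpint, 4 (Ezh2, Eed, Aebp2 and Rbbp4) hosted 6 junctions. Among them the join of exons 3 and 2 of Ezh2 was called higher in TAC at 1 week, with a difference of 1.60 ± 0.39, so 1 of 6 was called where 1.46% of the table was. Because the list was chosen with earlier results of these data known, no p-value is given. Nothing is read from that count, or from the median and sum below. The 6 are not independent, since 3 are junctions of Ezh2 that share an end and hold 631 of the 892 reads. The median of the 6 at 1 week was 1.35 against 0.04 for the table, and it was 0.67 at 4 weeks and -0.11 at 8 weeks, where none of the 6 was called. At 1 week their summed normalized reads were 22.02 ± 7.78 in sham and 63.6 ± 23.8 in TAC (SD, n = 4 each). Of 15 p53 pathway genes, Mdm2 and Mdm4, which encode inhibitors of p53, hosted 3 junctions, of which 0 were called in any of the 8 comparisons. Of 11 genes of the 7SK particle and P-TEFb, the cyclin T genes Ccnt1 and Ccnt2 and the elongation genes Aff1 and Aff4 hosted 4 junctions, and 0 were called. Of 21 nuclear speckle and splicing factor genes considered beside Malat1, Acin1 alone hosted a junction, and it was not called. Of 36 other noncoding host genes, Pvt1 alone did, and its junction was not called either, and the 15 mitochondrial genes searched hosted none.

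Likeness to other junctions was described for the members with a mean of at least 5 normalized reads, Nlrp5-ps and Rn7sk, against the 269 other junctions that reach that mean. Over the 24 libraries, which share depth and the 6 groups, Nlrp5-ps ranked the libraries most like a junction of Esyt2 (Spearman 0.75), then Psd3 (0.69) and Crebrf (0.66). Rn7sk was most like junctions of Rev1 (0.52), Ikzf1 (0.50) and Rere (0.44). Between junctions of 1 host the values were 0.65 for the Gm28437 pair, 0.15 to 0.55 for the 3 Malat1 pairs and 0.14 to 0.42 for the 3 Lncpint pairs. At a few reads per library such values are descriptions only.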

How the data were processed

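Back-splice junction reads of 24 cardiac fibroblast libraries (TAC or sham) were analysed from the table deposited by the authors. The unit is a signal normalized by the authors: once an offset of 0.01 is taken off, all values (100%, within 0.001 of a read) are whole numbers of reads times a factor per library. FastQC, Trimmomatic, STAR and mm10 are named in the submitters' processing notes, with versions, caller settings and the normalization not given in the sources used here. Values are normalized reads with the offset removed.

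Hosts and exon positions came from GENCODE M21, and sequences from its transcripts; intervals were aligned with blastn 2.17.0. Under R 4.3.3, limma 3.58.1 with its trend option was fitted to log2(normalized reads + 0.5) of all 1717 junctions in 6 groups, with Benjamini-Hochberg adjustment per comparison and calls at 0.05; the fit was tested on simulated data. A filter of 2 reads in 3 libraries removed none. Every junction of the 5 hosts is named; the members and gene lists were chosen with earlier results of these data known. The deposited values are not raw counts, so the planned count test was replaced by limma-voom on the reads worked out from them, an alternative added after seeing the data. The 37 library pairs within groups held 0 identical pairs, and a chi-square test of their counts gave p-values of at most 0.0109. Intervals and floors cover counting error only.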

Additional observations from a re-analysis of the deposited data

Results flagged for a closer look

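Among 50 groups of 4 or 5 libraries examined for a library far from the others, 9 were marked, where chance marks about 1 group in 20 if values do not tie. Where the other libraries tie at 0 reads, a library with any read stands apart. That rate therefore does not hold for such groups, and nothing is read from the count. Most rest on 1 to 3 reads. In the 1-week sham group, 1 library stood apart for the 57-bp (3.77 normalized reads in replicate 1), 66-bp (3.01 in replicate 3) and 45-bp (3.01 in replicate 3) junctions of Malat1, with 0 in the other 3. In 1-week TAC, replicate 1 was at 0 for the 57-bp Malat1 junction against 2 reads in each other library, and the 45-bp Malat1 junction (2.00, replicate 3) and the 14674-bp Lncpint junction (0.958, replicate 2) were each read in 1 library alone. The 58123-bp Lncpint junction was high in 4-week sham replicate 5 (7.37, 8 reads against 1 or 2) and in 4-week TAC replicate 4 (1.93, 3 reads against 1). Nlrp5-ps was high in 8-week sham replicate 1 (10.6, 10 reads against 3 or 4).

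In 6 cases every TAC library lay on one side of the sham mean at one time and on the other side at another time. The TAC minus sham log2 difference at 8 weeks less that at 1 week was 4.48 for the 14674-bp Lncpint junction and -3.08 for Nlrp5-ps. At 8 weeks less that at 4 weeks it was 4.43 and 1.63 for the 45-bp and 66-bp Malat1 junctions, 2.45 for Rn7sk and -1.53 for Nlrp5-ps. These differences between times were not tested, since the differences they are made of had been used to choose the members. The Nlrp5-ps cases rested on 8-week sham replicate 1, without which 2 of the 3 TAC libraries of that time were above the sham mean.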

How the results depend on the processing

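Junctions called over the table between TAC and sham at 4 weeks (2) were 0 with a pseudocount of 0.1, 6 with a pseudocount of 1, 6 with TMM scaling (3 higher and 3 lower against 0 and 2), 7 with limma-voom, 14 with only the groups compared and 4 with the replicate number as a block. At 1 week (25) there were 14 with limma-voom and 4 with only the groups compared. For the mean of the times (11) there were 5 with a pseudocount of 0.1 and 20 with limma-voom. TAC at 4 against 1 week (0) gave 1 with a pseudocount of 0.1 and 1 with limma-voom, sham at 8 against 1 week (2) gave 1 with limma-voom and 0 with only the groups compared, and TAC at 8 against 1 week (0) gave 1 with limma-voom. Of the members, the calls at 1 week (3) were 1 with a mean of at least 2 normalized reads, 1 with limma-voom and 0 with only the groups compared. At 4 weeks (0) they were 1 with a pseudocount of 1, 1 with TMM, 1 with limma-voom and 2 with only the groups compared. For the mean (1) they were 0 with a pseudocount of 0.1, 2 with a pseudocount of 1 and 2 with limma-voom. With 1 library left out, the table's calls ranged from 6 (without sham replicate 2) to 32 at 1 week, 0 to 4 at 4 weeks, 4 (without 8-week TAC replicate 1) to 17 (without 1-week sham replicate 1) for the mean, 0 to 4 for sham at 4 against 1 week and at 8 against 1 week, 0 to 1 for TAC at 4 against 1 week, and members' calls from 0 to 2 at 1 week, 0 to 1 at 4 weeks and 1 to 2 for the mean. The cause of these moves was not tested. Under each of these settings, and with any 1 library left out, 0 members passed a comparison between times.

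Of the members' own differences, 7 moved by more than the spread between replicates with a pseudocount of 0.1, among them the 62-bp Gm28437 junction at 1 week (-5.10) and the 45-bp Malat1 junction at 4 weeks (-5.08) and 8 weeks (2.56), and 2 with a pseudocount of 1 (the 14674-bp Lncpint junction at 1 week, -1.78, and the 45-bp Malat1 junction at 4 weeks, -2.16). Deviations of the 55 pairs of libraries with the same replicate number, taken across the 6 groups, correlated at a mean of 0.01 (-0.29 to 0.28). The replicate block changed no other call count by over 1.5 times. In sham at 4 and 8 weeks the replicate numbers differ from those in the submitters' library names. Pairing of sham and TAC libraries by the submitters' own numbers was not tested. The planned edgeR alternative was not run, because the deposited values are normalized and carry an offset; limma-voom on the reads worked out from them took its place. Depth limits every member: none of the 10 member junctions had more than 19 reads in a library.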
